A study of Mus musculus with 3 samples.

Results

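Oxidative phosphorylation genes were taken from 2 peak lists of mouse neural stem cells as every closest-gene name that begins with a subunit symbol of the respiratory chain or the ATP synthase (Nduf with a, b, c, s or v, Uqcr, Cox4 to Cox8, Atp5), or that is Sdha to Sdhd or Cyc1. This gave 85 genes out of 16428 genes named in either list, of which 15489 were protein-coding. By complex, 35 of the 85 encode subunits of complex I, 3 of complex II, 9 of complex III, 15 of complex IV and 14 of complex V. The other 9 are 4 assembly factors of complex I (Ndufaf1 to Ndufaf4), 4 relatives of subunits (Atp5s, Atp5sl, Cox7a2l and Ndufa4l2) and Cox4nb, a subunit of an endoplasmic reticulum membrane complex that meets the rule by its spelling alone.

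The study mapped where Smad3, the DNA-binding transducer of TGFb signals, and JMJD3, a histone demethylase that removes repressive methyl groups from histone H3, sit on chromatin. The cells were neural stem cells from the cerebral cortex of wild-type mouse embryos at embryonic stage E12.5, cultured in EGF (20 ng/ml) and FGF (10 ng/ml) and given TGFb at 5 ng/ml, for 30 minutes in the immunoprecipitated samples. There was 1 chromatin immunoprecipitation sequencing (ChIP-seq) library for Smad3 and 1 for JMJD3, both from TGFb-treated cells, and an input library made with no antibody that was not used here. With no untreated library, no change on TGFb could be measured, and with 1 library per antibody no difference has a replicate error. Whether the cells of several embryos were combined is not stated in the labels.

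Oxidative phosphorylation is the route by which mitochondria turn the energy of nutrients into ATP. Complexes I and II feed electrons from NADH and succinate into ubiquinone, complex III passes them to cytochrome c, complex IV hands them to oxygen, and the ATP synthase, complex V, uses the proton gradient that the chain builds. Most subunits are encoded in the nucleus and imported into mitochondria, and their promoters are known as targets of nuclear respiratory factor 1 (NRF1), of the ETS-family factor GABP (nuclear respiratory factor 2) and of YY1. Proliferating neural stem cells rely largely on glycolysis, and oxidative phosphorylation gains weight as they become neurons.

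The Smad3 list held 98086 peaks with a median width of 351 bp and the JMJD3 list 63154 peaks with a median of 490 bp, with no height or read number, so that the sequencing depth behind a peak is unknown. Peaks at most 10 bp apart were joined into regions, giving 70562 Smad3 and 45018 JMJD3 regions. A gene was counted as having a promoter peak when the midpoint of a peak listed under its name lay at most 1 kb from its transcription start site (TSS), and its region width is that of the widest such region. Peak lists do not measure expression, so the labelled cell type could be set only against promoter peaks. All 8 neural stem cell markers looked up (Sox2, Nes, Pax6, Hes1, Hes5, Fabp7, Notch1 and Msi1) had a Smad3 promoter peak and 7 had a JMJD3 promoter peak, where 74.8% and 58.8% of all coding genes named in either list had one. A Smad3 promoter peak is thus common among genes at large, and these counts do not identify the cells. Of markers named in a list, 3 of 5 neuronal, 2 of 4 astrocyte, 0 of 2 oligodendrocyte, 0 of 3 microglial, 1 of 3 endothelial and 0 of 1 striated muscle genes had a Smad3 promoter peak.

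The promoters of 5 members, one per complex, are shown as examples of the sequence around member start sites. Each member with both factors was ranked by the lower of its Smad3 and JMJD3 width percentiles. The highest of each complex with a RefSeq promoter was chosen, which need not have the widest region of either factor. Ndufs7 encodes an iron-sulphur subunit of complex I, Sdhb the iron-sulphur subunit of complex II and Uqcrh the hinge protein of complex III. Cox8a encodes the smallest subunit of complex IV and Atp5d the delta subunit of the F1 part of complex V. Sequences run from 250 bases before to 50 after the RefSeq start in GRCm38.p6, 5′ to 3′ on the gene's strand. Their positions are chr10:80249199-80249498, plus strand, for Ndufs7, chr4:140961021-140961320, plus strand, for Sdhb, chr4:116075021-116075320, minus strand, for Uqcrh, chr19:7217567-7217866, minus strand, for Cox8a, and chr10:80142025-80142324, plus strand, for the first of 2 starts of Atp5d. Capitals mark a match, on either strand, to one of the letter patterns searched for: AAGATGG, the YY1 pattern, in Ndufs7, and CCGGAAG, the core of the ETS and GABP pattern, in Sdhb and, on the opposite strand, in Uqcrh and Cox8a. The Atp5d stretch holds none of the patterns.
Ndufs7: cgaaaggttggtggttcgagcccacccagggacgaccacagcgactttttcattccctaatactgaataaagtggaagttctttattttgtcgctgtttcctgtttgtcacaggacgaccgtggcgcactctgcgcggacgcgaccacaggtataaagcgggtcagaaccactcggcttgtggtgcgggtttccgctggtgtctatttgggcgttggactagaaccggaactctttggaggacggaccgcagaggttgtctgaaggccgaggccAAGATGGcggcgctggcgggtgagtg
Sdhb: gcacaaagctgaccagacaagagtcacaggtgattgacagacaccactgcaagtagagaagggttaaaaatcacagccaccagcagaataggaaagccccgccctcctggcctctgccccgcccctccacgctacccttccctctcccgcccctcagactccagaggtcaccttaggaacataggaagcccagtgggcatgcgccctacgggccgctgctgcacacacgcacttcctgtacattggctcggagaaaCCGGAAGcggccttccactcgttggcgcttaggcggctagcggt
Uqcrh: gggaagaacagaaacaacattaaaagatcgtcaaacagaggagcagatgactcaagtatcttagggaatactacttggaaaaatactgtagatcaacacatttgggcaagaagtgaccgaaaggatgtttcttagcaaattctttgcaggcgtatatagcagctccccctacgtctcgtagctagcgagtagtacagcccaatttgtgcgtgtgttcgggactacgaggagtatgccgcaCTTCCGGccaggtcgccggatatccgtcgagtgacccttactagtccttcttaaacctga
Cox8a: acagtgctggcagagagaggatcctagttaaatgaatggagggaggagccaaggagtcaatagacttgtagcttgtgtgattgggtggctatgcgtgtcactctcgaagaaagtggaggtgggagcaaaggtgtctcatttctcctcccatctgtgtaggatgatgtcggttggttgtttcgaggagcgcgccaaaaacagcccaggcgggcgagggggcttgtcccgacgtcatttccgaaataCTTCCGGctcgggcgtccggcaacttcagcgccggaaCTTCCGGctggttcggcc
Atp5d: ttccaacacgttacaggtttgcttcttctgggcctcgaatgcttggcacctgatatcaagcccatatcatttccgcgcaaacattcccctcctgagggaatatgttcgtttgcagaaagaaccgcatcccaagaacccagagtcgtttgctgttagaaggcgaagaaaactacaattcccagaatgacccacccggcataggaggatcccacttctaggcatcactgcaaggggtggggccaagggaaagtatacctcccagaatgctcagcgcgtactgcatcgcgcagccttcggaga

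Smad3 was found at nearly every member promoter. A Smad3 promoter peak was listed for 81 of the 85 members (95.3%, exact 95% Clopper-Pearson interval 88.4 to 98.7%), against 74.8% of all coding genes named in either list. A JMJD3 promoter peak was listed for 56 members (65.9%, interval 54.8 to 75.8%), against 58.8% of coding genes. Both were listed for 54 members (63.5%, interval 52.4 to 73.7%), against 56.9% of coding genes. The interval for Smad3 thus lies above the background, while those for JMJD3 and for both include it. The intervals cover counting error over the 85 genes only and hold no replicate error.

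Among the 81 members with Smad3, 54 also had JMJD3 (66.7%, interval 55.3 to 76.8%), against 76.1% of coding genes with a Smad3 promoter peak. The interval includes the background. The other 27 members had Smad3 without a JMJD3 peak under their name, 2 had JMJD3 without Smad3 (Ndufa2 and Ndufa8), and 2 had neither (Ndufb3 and Cox4i2), against 23.3% of coding genes with neither. Every member was named in the Smad3 list at some distance, and 17 were not named in the JMJD3 list at all.

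The rule takes names from the lists, so a gene with no peak nearby could not become a member. RefSeq held 100 coding genes whose symbol or a synonym meets the rule, of which 10 were named in neither list (Atp5md, Atp5pb, Cox6a2, Cox7b2, Cox8b, Ndufb1, Ndufb11, Ndufb4b, Ndufb4c and Sdhd) and 5 appeared under another symbol, all 5 with a Smad3 and 3 with a JMJD3 promoter peak. Counting unnamed genes as without a peak, Smad3 was at 86 of 100 genes (86.0%, interval 77.6 to 92.1%), against 52.6% of all 21900 RefSeq coding genes. JMJD3 was at 59 of 100 (59.0%, interval 48.7 to 68.7%), against 41.5%. In this count, chosen after seeing the data, the intervals of both factors lie above the background, so the reading for JMJD3 depends on which genes are counted. Shares and backgrounds may both be too low here, since an unnamed gene can have a peak credited to a neighbour. Peaks near unnamed genes were not looked up by position. The lists are on mm9 and the RefSeq genes on GRCm38.p6, so some genes may not have been open to naming.

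**Figure D1:**
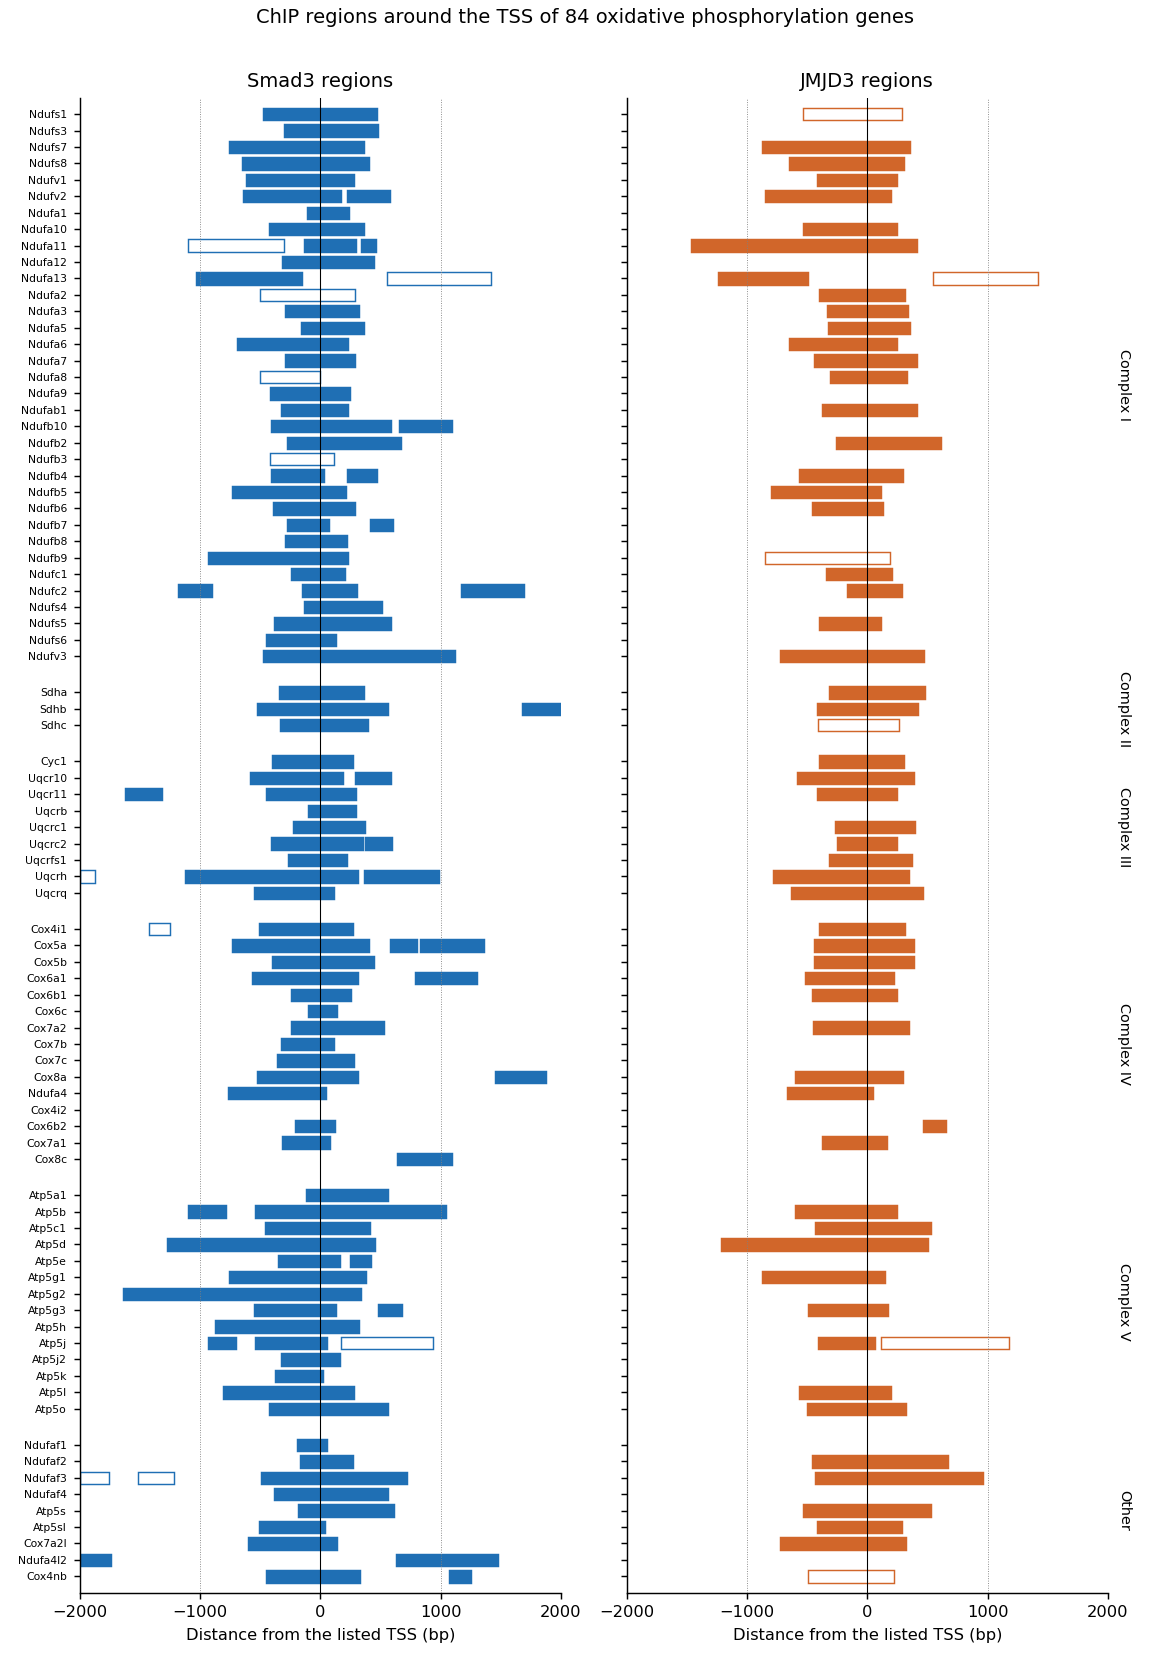
Smad3 regions (left) and JMJD3 regions (right) around the TSS of 84 members, 1 row per gene grouped by complex, with distance from the listed TSS in bp. Filled bars are regions listed under the gene's own name and open bars are regions credited to a neighbouring gene. Nearly all Smad3 rows and 55 of the JMJD3 rows carry a filled promoter region, most of them across the TSS.

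Since each peak names 1 closest gene, a promoter shared by neighbouring genes on opposite strands can be credited to either. Of the 85 members, 21 had the TSS of another named gene on the opposite strand within 1 kb. When peaks of any name were counted by position, Smad3 lay at 84 members (98.8%), against 76.1% of coding genes, and Cox4i2 was the exception. The 3 members gained were Ndufa2 through a peak credited to Ik, Ndufa8 through Morn5 and Ndufb3 through Fam126b. JMJD3 lay by position at 60 members (70.6%, interval 59.7 to 80.0%), against 61.1% of coding genes. The 4 members gained were Ndufs1, whose TSS lies 8 bp from that of Eef1b2, Ndufb9, 79 bp from Tatdn1, Cox4nb, 177 bp from Cox4i1, and Sdhc. By position, 24 members had Smad3 without JMJD3, and JMJD3 accompanied 71.4% of the members with Smad3, against 78.8% of such coding genes.

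JMJD3 was listed by position at 19 of the 21 members with such a neighbour (90.5%), against 87.8% of the 1668 coding genes with one. Among the 64 members without, it was at 41 (64.1%), against 57.8% of 13821 coding genes. Both shares lie close to their backgrounds. Among the shared promoters, Atp5j, a peripheral-stalk subunit of the ATP synthase, starts 451 bp from Gabpa, the DNA-binding subunit of GABP. The Atp5j region was 601 bp wide for Smad3 and 480 bp for JMJD3, and separate regions under Gabpa were 770 bp and 1061 bp wide. Atp5c1 and Kin, 101 bp apart, were credited with one region each of 880 bp (Smad3) and 960 bp (JMJD3).

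In complex I, the entry point for electrons from NADH, Smad3 was at 32 of 35 genes (91.4%) and JMJD3 at 23 (65.7%). Over coding genes named in either list the shares were 74.8% and 58.8%. The JMJD3 interval of complex I, 47.8 to 80.9%, includes the coding share. The 7 nuclear core subunits, which carry the flavin and iron-sulphur clusters and the quinone site, all had Smad3, and 5 had JMJD3. Widths below are those of the widest promoter region. Ndufv1, which binds NADH and flavin, had 900 bp of Smad3 and 661 bp of JMJD3. Its partner Ndufv2 had 810 bp of Smad3 and 1050 bp of JMJD3. Core subunits close to the quinone site also had both: Ndufs7 had 1120 bp of Smad3 and 1230 bp of JMJD3, and Ndufs8 had 1060 bp and 960 bp. Ndufs3, with a Smad3 region of 780 bp, had no JMJD3 promoter peak by name or by position. Ndufs1, the largest core subunit, had 951 bp of Smad3, and the JMJD3 region across its start was credited to Eef1b2 with a width of 820 bp.

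Of the 28 accessory subunits of complex I, 25 had Smad3 (89.3%) and 18 had JMJD3 (64.3%), beside 74.8% and 58.8% of coding genes. Their median Smad3 region was 651 bp, against 900 bp in the core subunits, and the ranges overlapped. Ndufv3, an accessory subunit of the NADH-oxidising module, had the widest Smad3 region of the complex, 1600 bp, beside a JMJD3 region of 1200 bp. Ndufa11, in the membrane arm, stood apart in the other direction, with 431 bp of Smad3 and 1880 bp of JMJD3. The JMJD3 region extended upstream over the start of Vmac, 62 bp away on the opposite strand, where a separate Smad3 region of 801 bp was credited to Vmac. Ndufb9 (1161 bp of Smad3) and Ndufb10 (1000 bp of Smad3) were the widest of those with no JMJD3 under their name. Only Ndufb9 of this pair gained JMJD3 by position. Ndufa2 and Ndufa8, listed with JMJD3 alone, had JMJD3 regions of 711 bp and 641 bp.

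Complex II, which oxidises succinate and is shared with the citric acid cycle, is encoded wholly in the nucleus. Sdha, the flavoprotein, had 710 bp of Smad3 and 800 bp of JMJD3, and Sdhb had 1090 bp and 840 bp. Sdhc, a membrane anchor, had 731 bp of Smad3 and no JMJD3 peak under its own name. Sdhd, the other anchor, was named in neither list.

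In complex III, JMJD3 was at 8 of 9 genes (interval 51.8 to 99.7%), by name and by position, and all 9 had Smad3. Over coding genes JMJD3 was at 58.8% by name and 61.1% by position, both within that interval, and Smad3 at 74.8% by name. The JMJD3 share of complex III by name was the highest of the complexes, with an interval that overlaps the others. By position complex II had JMJD3 at 3 of 3 genes. Cyc1, the cytochrome c1 subunit, had 671 bp of Smad3 and 710 bp of JMJD3, and Uqcrfs1, the Rieske iron-sulphur protein, had 491 bp and 690 bp. Uqcrh was the widest, with 1440 bp of Smad3 and 1130 bp of JMJD3, both also listed under Lrrc41 on the opposite strand. Uqcrq, a small subunit, had 660 bp of Smad3 and 1100 bp of JMJD3. Uqcr10, also small, had 770 bp and 970 bp. Uqcrb, with a Smad3 region of 401 bp, was the one complex III gene with no JMJD3 promoter peak.

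In complex IV, cytochrome c oxidase, Smad3 was at 14 of 15 genes (93.3%) and JMJD3 at 10 (66.7%). Over coding genes the shares were 74.8% and 58.8%, and the JMJD3 interval of complex IV, 38.4 to 88.2%, includes the latter. Cox5a, a subunit of the matrix side, had the widest Smad3 region, 1141 bp, with a JMJD3 region of 840 bp, and its 5 Smad3 promoter peaks were the most of any member. Cox6a1 had 880 bp and 740 bp, Cox5b, the zinc-binding subunit, had 850 bp and 830 bp, and Cox8a had 840 bp and 900 bp. Cox7c (640 bp) and Cox8c (460 bp) had the widest Smad3 regions among the genes without JMJD3. Cox6c had the narrowest Smad3 region of all members, 240 bp, and no JMJD3.

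In complex V, all 14 genes had Smad3 and 8 had JMJD3 (57.1%). Over coding genes the shares were 74.8% and 58.8%, so the JMJD3 share of complex V was close to that of coding genes. The median Smad3 region of the complex was 935 bp, the widest of the complexes, against 760 bp over coding genes, and the range from 400 bp (Atp5k) to 1980 bp (Atp5g2) spans nearly the whole range of the members. Atp5d, of the F1 part, had 1730 bp of Smad3 (chr10:79603781-79605510 on mm9) and 1720 bp of JMJD3 (chr10:79603841-79605560), and the regions overlap almost fully. Atp5b, the catalytic beta subunit, had 1590 bp of Smad3 and 850 bp of JMJD3. Atp5a1, the alpha subunit that alternates with beta in the catalytic head, had 680 bp of Smad3 and no JMJD3. These 2 partner subunits thus differed in JMJD3. Atp5h, a subunit of the peripheral stalk, had a Smad3 region of 1200 bp and no JMJD3.

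The 9 remaining members all had Smad3, and 5 had JMJD3 (55.6%), beside 74.8% and 58.8% of coding genes. Ndufaf3 was widest, with 1220 bp of Smad3 and 1401 bp of JMJD3, and Ndufaf2 had 441 bp and 1130 bp. Ndufaf1 (251 bp) and Ndufaf4 (950 bp) had Smad3 alone. Of the 4 assembly factors of complex I, 2 had JMJD3 and 2 did not. The interval of this share, 6.76 to 93.2%, includes that of coding genes.

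**Figure D2:**
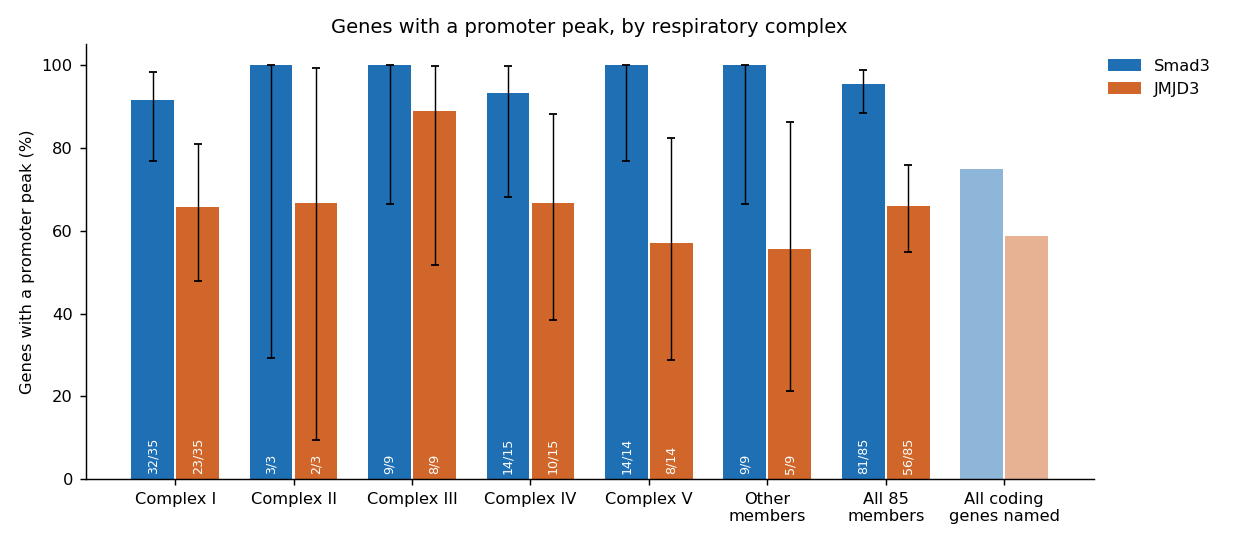
Share of genes with a promoter peak (y axis, %) for Smad3 and JMJD3 in each complex, in all 85 members and in all coding genes named in either list. Error bars are exact 95% Clopper-Pearson intervals and the numbers in the bars give genes with a peak of genes in the group. Smad3 bars range from 91.4% in complex I to every gene in complexes II, III and V and in the other members, and JMJD3 bars from 55.6% in the other members to 88.9% in complex III.

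Several subunits come as isoforms from separate genes, some widely expressed and some restricted to certain tissues. Cox4i1, the common isoform of a regulatory subunit, had 780 bp of Smad3 and 711 bp of JMJD3. Cox4i2, the isoform of lung and low oxygen, had neither, and the nearest peaks listed under its name lay 10595 bp (Smad3) and 10590 bp (JMJD3) from its TSS. Cox8a had both factors, whereas Cox8c, known from testis, had Smad3 alone, with its peak midpoint 862 bp downstream of the TSS. Ndufa4 had 810 bp of Smad3 and 710 bp of JMJD3, and Ndufa4l2, its hypoxia-induced relative, had a Smad3 midpoint 829 bp downstream and its nearest JMJD3 peak 2792 bp upstream. In each of these 3 families the widely expressed gene had both factors at the start site, and the restricted one lacked JMJD3 at its promoter. They are placed together by this outcome. Over all of complex IV, JMJD3 was at 2 of 4 restricted and 8 of 11 widely expressed genes, against 58.8% of coding genes. Ndufa4 is counted there as widely expressed, while Ndufa4l2, placed outside the complexes, is not counted as restricted. Some widely expressed genes, such as Cox5a and Cox5b, have no restricted partner, so these counts do not compare isoforms pair by pair.

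Other families were not split in that way. Cox7a1, the isoform of heart and skeletal muscle, had 400 bp of Smad3 and 540 bp of JMJD3, narrower than Cox7a2 with 771 bp and 800 bp. Cox7a2l, a factor of respiratory supercomplexes, had 740 bp and 1050 bp. Cox6b2, of testis, had 340 bp of Smad3 and 190 bp of JMJD3, the narrowest JMJD3 region of the members, against 500 bp and 710 bp at Cox6b1. Cox7b had 440 bp of Smad3 and no JMJD3. Of the muscle and testis isoforms, Cox6a2, Cox7b2 and Cox8b were named in neither list. Atp5g1, Atp5g2 and Atp5g3 encode the same mature c subunit of the ATP synthase rotor. Atp5g1 had 1140 bp of Smad3 and 1020 bp of JMJD3, Atp5g3 had 680 bp and 660 bp, and Atp5g2 had 1980 bp of Smad3 with no JMJD3 by name or position. That Smad3 region, the widest of the members, was also listed under the microRNA gene Mir688, which starts 819 bp away on the same strand.

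Promoters of 3 isoforms are given so that these pairs can be compared, with Cox7a1 and Cox7a2 as a restricted and a common isoform and Atp5g2 as the gene with the widest Smad3 region. They are taken from RefSeq GRCm38.p6 in the same window, at chr7:30183921-30184220, plus strand, for Cox7a1, chr9:79759804-79760103, minus strand, for Cox7a2 and chr15:102670998-102671297, minus strand, for Atp5g2. Capitals mark AGACAGAC, a repeated Smad box, in Cox7a1 and overlapping matches to GCGCATGCG, the NRF1 pattern, on both strands in Atp5g2. Cox7a2 holds none of the patterns.
Cox7a1: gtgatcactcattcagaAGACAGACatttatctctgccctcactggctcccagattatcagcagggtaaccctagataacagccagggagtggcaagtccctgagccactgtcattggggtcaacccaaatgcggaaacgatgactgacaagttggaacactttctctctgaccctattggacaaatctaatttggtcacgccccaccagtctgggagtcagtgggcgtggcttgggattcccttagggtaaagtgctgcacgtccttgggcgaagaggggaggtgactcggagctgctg
Cox7a2: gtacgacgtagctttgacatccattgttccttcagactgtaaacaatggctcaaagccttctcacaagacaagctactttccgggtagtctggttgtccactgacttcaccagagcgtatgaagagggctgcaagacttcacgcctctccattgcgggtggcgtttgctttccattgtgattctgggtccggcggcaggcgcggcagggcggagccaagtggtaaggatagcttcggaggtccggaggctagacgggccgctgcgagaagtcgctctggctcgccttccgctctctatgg
Atp5g2: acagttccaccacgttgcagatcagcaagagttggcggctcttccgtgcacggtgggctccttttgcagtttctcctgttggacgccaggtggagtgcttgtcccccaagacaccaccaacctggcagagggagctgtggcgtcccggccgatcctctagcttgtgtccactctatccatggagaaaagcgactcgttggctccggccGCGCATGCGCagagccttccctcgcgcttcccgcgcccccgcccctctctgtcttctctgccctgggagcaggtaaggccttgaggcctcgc

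Region widths of the members were close to those of other genes. The median Smad3 region was 750 bp (range 240 to 1980 bp), against 760 bp over coding genes with a Smad3 promoter peak, and the median JMJD3 region was 800 bp (190 to 1880 bp), against 860 bp. Members with both factors had a median Smad3 width of 775.5 bp, against 820 bp in coding genes with both. The 27 members with Smad3 alone had 651 bp, against 550 bp in coding genes with Smad3 alone. Their range, 240 to 1980 bp, contains that of the members with both, 340 to 1730 bp.

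Where both factors were listed, their regions lay on top of each other. Of the 54 members with both, 53 had regions sharing at least 1 bp, and Cox6b2 was the exception. In coding genes with both, 95.1% shared at least 1 bp. The shared stretch had a median of 670 bp, which was 91.4% of the Smad3 region and 89.05% of the JMJD3 region, against 90.6% and 83.26% in coding genes. The Smad3 region was the wider at 27 members and the JMJD3 region at 26, and at Ndufc2 both were 461 bp. With any JMJD3 region counted, whatever its listed gene, 57 of the 81 Smad3 promoter regions overlapped one, or 70.4%, against 76.8% in coding genes. In the other direction 55 of 56 JMJD3 promoter regions overlapped Smad3, or 98.2%, against 97.6% in coding genes.

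**Figure D3:**
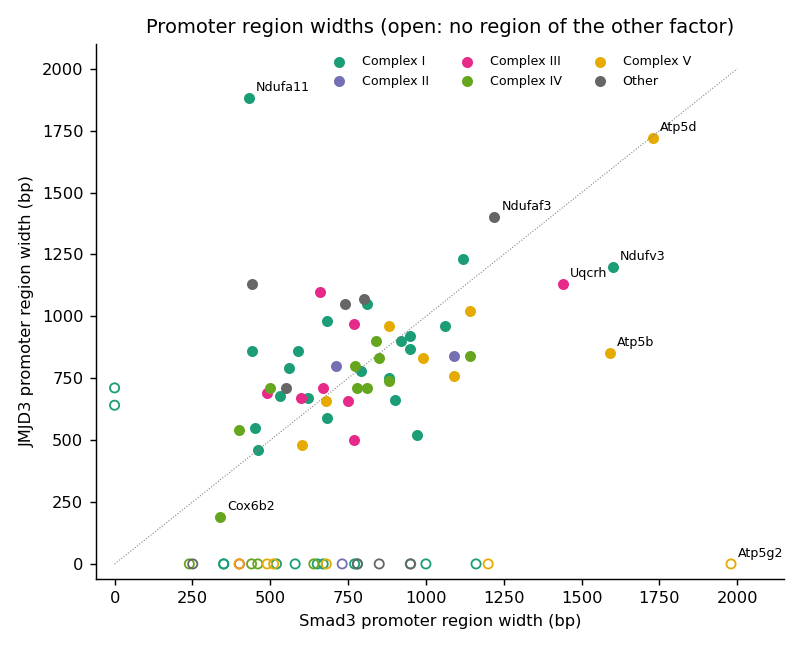
Width of the widest promoter region of each member for Smad3 (x axis, bp) and JMJD3 (y axis, bp), coloured by complex, with a dotted line of equal width. Open circles at 0 mark members with no promoter region of the other factor. Atp5d lies on the line at 1730 and 1720 bp, Ndufa11 lies far above it, and Atp5g2 lies at 1980 bp of Smad3 with no JMJD3.

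The regions of the members lay over the TSS in a larger share than those of other genes, a difference that was not tested. The Smad3 region covered the TSS in 78 of 81 members (96.3%), against 85.1% of coding genes with a Smad3 promoter peak, and the JMJD3 region in 54 of 56 (96.4%), against 89.8%. Along the promoter, Smad3 coverage of the members reached 95.3% at 50 bp upstream of the TSS, where coding genes also peaked, at 67.6%. JMJD3 coverage reached 68.2% from 150 bp upstream, against a maximum of 55.6% in coding genes. At 500 bp downstream the order was reversed, with Smad3 over 23.5% of the members, against 26.6% of coding genes, and JMJD3 over 9.41%, against 17.9%. At 500 bp upstream Smad3 covered 34.1% of members, against 28.3% of coding genes, and JMJD3 30.6%, against 27.7%.

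**Figure D4:**
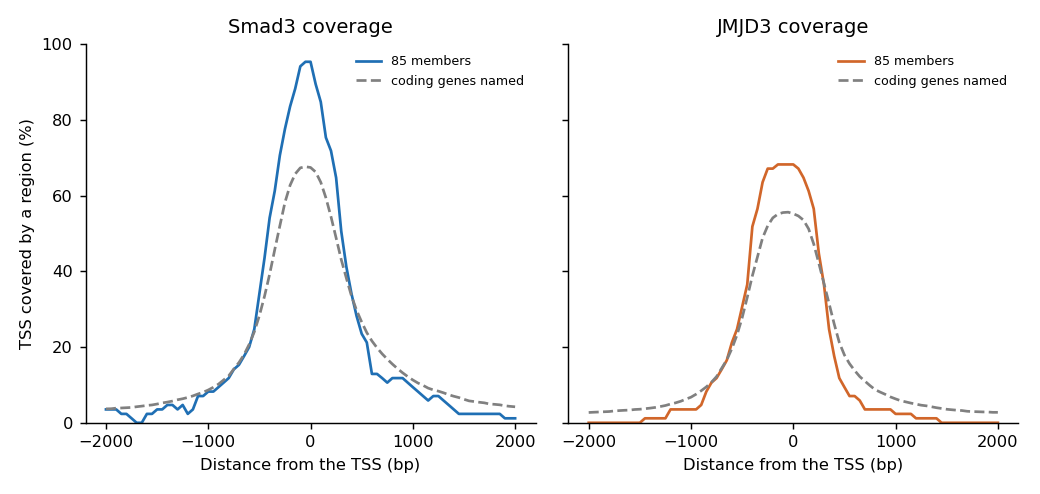
Share of TSS covered by a region of any name (y axis, %) by distance from the TSS in bp, for Smad3 (left) and JMJD3 (right), with the 85 members as a solid line and coding genes named in either list as a dashed line. Members lie above coding genes at the TSS, with maxima of 95.3% and 67.6% for Smad3, and below them from 500 bp downstream.

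A smaller share of members than of coding genes had a listed peak away from the promoter. A Smad3 peak more than 1 kb from the TSS was credited to 44 members (51.8%), against 72.4% of coding genes, and a JMJD3 peak to 29 members (34.1%), against 60.6%. How much of these differences comes from how genes entered the comparison was not tested. Of the coding genes, 23.3% had no promoter peak of either factor and were named only for a distal peak, against 2 of the 85 members. A distal peak is credited to the closest TSS, and gene length and spacing were not taken into account. Atp5o, the oligomycin-sensitivity subunit, had the most, with 19 Smad3 and 14 JMJD3 peaks past 1 kb. Atp5g3 followed with 16 and 13, and Ndufb9 with 15 and 10. At the edge of the window, the outermost Smad3 peaks counted as promoter peaks lay 1000 bp downstream at Cox5a and 987 bp downstream at Ndufb10. The nearest ones left out lay 1040 bp upstream at Ndufc2 and 1043 bp downstream at Cox6a1. For JMJD3 the outermost counted were 868 bp upstream at Ndufa13 and 837 bp upstream at Atp5d, and the nearest left out were 2705 bp downstream at Cox8a and 2792 bp upstream at Ndufa4l2.

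Promoter sequences were found in RefSeq for 69 of the 85 members, and the patterns of known regulators of respiratory genes were counted in them on both strands. A gene with more than 1 RefSeq start, as 6 members had, was counted when any of its promoters held the pattern. The NRF1 pattern GCGCATGCG was in 9 member promoters (13.0%), against 4.29% of coding genes with a Smad3 promoter peak and 1.95% of all 27025 genes in the table. With any base in its middle (GCGCNTGCG, which includes the exact pattern) it was in 24 members (34.8%), against 15.7% and 7.12%. By complex it was in 8 of 13 complex V genes and in 1 of 11 complex IV genes, Cox6a1. Those of complex V include Atp5g3 and, not at the first start but at another, Atp5c1 and Atp5d. The ETS and GABP pattern CCGGAAG was in 16 members (23.2%), against 19.9% of coding genes with Smad3 and 9.93% of all genes. The YY1 pattern AAGATGG was in 11 members (15.9%), against 8.16% and 7.28%, and 7 of the 11 were complex I genes.

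Patterns bound by Smad proteins were no more frequent in the members than in coding genes with a Smad3 promoter peak. The palindrome GTCTAGAC was in 0 of 69 member promoters, against 0.3% of coding genes with a Smad3 promoter peak and 0.248% of all genes. The repeat AGACAGAC was in 1, that of Cox7a1 (1.45%), against 1.83% and 2.14%. The GC-rich pattern GGCGCC was in 14 (20.3%), against 26.1% and 13.4%. The member promoters had a median GC content of 58.3%, against 61.7% in coding genes with Smad3 and 52.7% in all genes, and base composition was not matched in these counts. A match says that the letters are there, not that a factor binds.

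**Figure D5:**
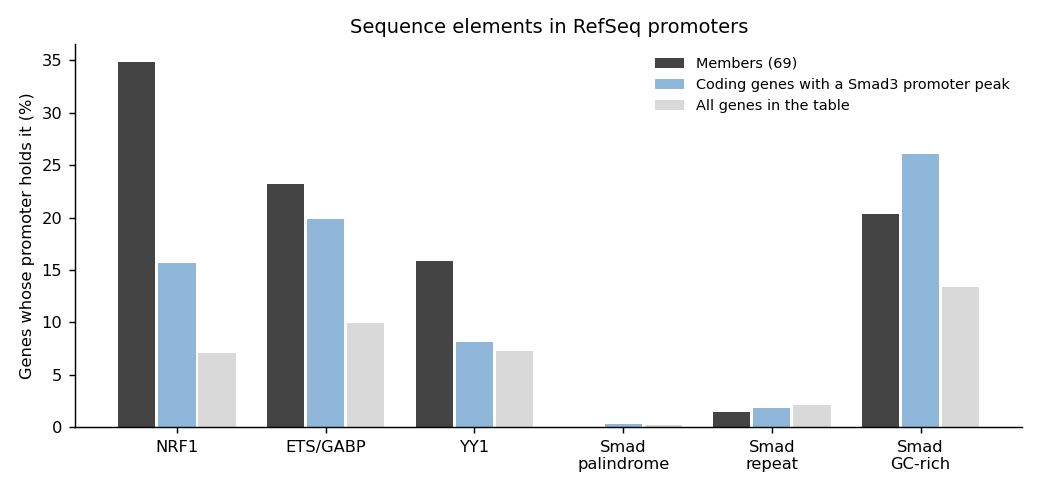
Share of genes (y axis, %) with each pattern, on either strand, in any of their RefSeq promoters, from 250 bases before to 50 after a start. Bars are for 69 members, for coding genes with a Smad3 promoter peak and for all genes in the table. The NRF1 bars are for the pattern with any middle base, at 34.8% in members, 15.7% in coding genes with Smad3 and 7.12% in all genes.

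By the YY1 pattern, members with Smad3 alone and with both factors had different counts, 6 of 18 with Smad3 alone and 5 of 49 with both. In coding genes the shares were 8.25% with Smad3 alone and 8.14% with both. The NRF1 pattern with any middle base was in 7 of 18 members with Smad3 alone and in 16 of 49 with both. In coding genes its shares were 13.4% and 16.4%. The ETS and GABP pattern was in 6 of 18 and 10 of 49, against 19.4% and 20.1% of coding genes. The GC-rich Smad pattern went the other way, in 3 of 18 and 11 of 49, against 21.6% and 27.4%. These counts are small and none was tested.

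Genes of the pathway outside the symbol rule were similar. Of 27 assembly factors and carriers, 26 had Smad3, 18 had JMJD3 and 17 had both, beside 74.8%, 58.8% and 56.9% of coding genes. Bcs1l, an assembly factor of complex III, had 1540 bp of Smad3 and 1560 bp of JMJD3, and Atpaf2, of complex V, had 1381 bp and 1180 bp. Cycs, which encodes somatic cytochrome c, had 980 bp of Smad3 and no JMJD3. Surf1, an assembly factor of complex IV, had JMJD3 alone, with a region of 920 bp.

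The nuclear regulators of respiratory genes all had Smad3, 13 of 13, and 12 had JMJD3, beside 74.8% and 58.8% of coding genes. Ppargc1a, the coactivator of mitochondrial biogenesis, had 700 bp of Smad3 and 1350 bp of JMJD3. Its nearest JMJD3 peak midpoint lay 819 bp downstream of the TSS, against 9 bp for Smad3. Nrf1 had 560 bp and 720 bp, Gabpa 770 bp and 1061 bp, and Yy1 1170 bp and 1210 bp. Tfam, which packages mitochondrial DNA and takes part in its transcription, had 870 bp of Smad3 and 810 bp of JMJD3. Tfb2m, a mitochondrial transcription factor, was the one without JMJD3, with 1020 bp of Smad3. Of the factors whose sequence patterns were counted above, the genes Nrf1, Gabpa and Yy1 thus had both Smad3 and JMJD3. Both were also listed at 56.9% of all coding genes.

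The share with Smad3 was close to that of other constitutively expressed families. Smad3 was at 69 of 74 mitochondrial ribosomal protein genes, 75 of 79 cytoplasmic ribosomal protein genes and 36 of 38 proteasome subunit genes. JMJD3 was at 50, 56 and 30 of these. For Smad3 the oxidative phosphorylation genes, at 95.3%, were slightly above the 93.2, 94.9 and 94.7% of these families. For JMJD3, at 65.9%, they were below the 67.6, 70.9 and 78.9%. The members' interval for Smad3 includes all of the families' shares, and that for JMJD3 includes those of both ribosomal families but not that of the proteasome genes, and no difference was tested.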

How the data were processed

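The data are lists of ChIP-seq peaks, 1 library per antibody (Smad3, JMJD3). Per the file headers, each deposited row gives a peak's chromosome, start and end, the distance of its midpoint from the closest RefSeq TSS, and that gene's transcript, symbol and Entrez ID. Bowtie 0.12.7, MACS 1.4, CASAVA and the build mm9 appear, with no role or settings, per the submitters' processing notes. The sources used here give no thresholds and no account of how the input library was used. The deposited lists hold no score, so region width, which depends on the unstated settings, stood for strength.

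Peaks of 1 list starting at most 10 bp past the end of the last were joined; this step was tested on simulated peaks. Shares carry exact Clopper-Pearson 95% intervals for counting error only. Genes were called coding by an NM transcript or by RefSeq biotype (GRCm38.p6), to which 16331 of 16428 names matched by Entrez ID. No coordinates were moved between builds: peak positions are on mm9, and promoter sequences are those of RefSeq on GRCm38.p6. No test was made, since each antibody has 1 library. The members and gene lists were chosen with earlier results of these data known. Genes named are, per complex, those with the widest regions of each factor, those lacking a factor, the core subunits, the isoforms, and those at the window's edge; some of these items are not reported here. Python 3.11.15, pandas 2.3.3, numpy 2.4.6 and scipy 1.17.1 were used.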

Additional observations from a re-analysis of the deposited data

How the results depend on the processing

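Of 34 recomputed values, 26 stayed within the interval of the reported value and 8 moved. When peaks in the wider 50% of regions were used, the Smad3 share was 81.2% of members, against 63.7% of coding genes, and the share with both was 50.6%, against 43.4%. Counting peaks of any name by position put Smad3 at 98.8%, and counting every RefSeq coding gene under the rule put it at 86.0%. Without joining, the median width was 520 bp for Smad3 and 675 bp for JMJD3. The share of JMJD3 promoter regions overlapping Smad3 was 89.3% with a reciprocal overlap of 50% and 87.5% with midpoints at most 200 bp apart. The cause of these moves was not tested beyond what each change does to the peaks counted. Windows of 500, 2500 and 5000 bp, equal numbers of regions and subunits alone gave Smad3 shares of 89.4 to 96.5%. No paired analysis was possible because each antibody has 1 library.

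The lists limit what can be said. They have no replicate, no untreated cells and no peak height. The absence of a listed peak holds for an unstated threshold. The numbers of peaks differ between the lists, so shares of Smad3 and JMJD3 are not on 1 scale.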
